A study of Saccharomyces cerevisiae with 75 samples.

Results

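The mating-type and pheromone genes on these yeast splicing arrays were MFA1, MFA2, STE3, MF(ALPHA)1, MF(ALPHA)2, MATALPHA1 and HMRA1, which are 7 of the 982 genes named on the array and hold 9 of its 1536 probes. They were chosen by gene symbol, with values of these same arrays already known, so their levels are given as a description and were not tested. The series asked how pre-mRNA splicing changes in Saccharomyces cerevisiae strains that lack an SR-like RNA-binding protein (Npl3, Gbp2, Hrb1) or the nonsense-mediated decay factor Upf1. On each 2-colour array, cDNA of total RNA from one strain was labelled with Cy5 and that of another strain with Cy3, and most comparisons were repeated with the dyes exchanged. Arrays of the same 2 RNA samples are called an extract pair here and were averaged, which gave 37 extract pairs in 21 groups from 73 arrays.

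The deletion strains are named as in the labels, and WT stands for the wild type that the labels call matched to that deletion strain. Dnpl3 was set against WT after 30 min at 16 °C (1 extract pair), at 30 °C (7), and after 15 min (2), 30 min (6) and 45 min (1) at 37 °C. Dgbp2 and Dhrb1 were each set against WT at 30 °C (1 extract pair each) and after 30 min at 37 °C (2 each), and Dgbp2Dhrb1 against WT under both of these conditions (2 each). Every other group had 1 extract pair. At 30 °C these were Dnpl3Dupf1 over WT, Dnpl3Dupf1 over Dupf1, Dupf1 over Dnpl3 and Dnpl3 over Dnpl3Dupf1. After 15 min at 37 °C they were Dnpl3Dupf1 over WT, Dupf1 over WT, Dnpl3Dupf1 over Dnpl3 and Dnpl3 over Dupf1. After 30 min at 37 °C they were Dupf1 over WT and a strain labelled Dupf1+Dnpl3 over Dnpl3. The labels give no mating type, strain background or number of independent cultures for any strain, and no mating type was assigned to a strain from its values.

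Haploid budding yeast comes in 2 mating types, a and alpha, set by which genes stand at the MAT locus. Cells of type a make a-factor from MFA1 and MFA2 and carry a receptor for alpha-factor, while cells of type alpha make alpha-factor from MF(ALPHA)1 and MF(ALPHA)2 and carry the a-factor receptor Ste3. The MATalpha gene MATALPHA1 encodes the activator that, with Mcm1, switches on the alpha-specific genes, and a second MATalpha product, alpha2, represses the a-specific genes. Silent copies of the mating-type genes lie at HML and HMR, so a probe named for MATALPHA1 or HMRA1 cannot be assigned to the expressed or the silent copy.

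Every value below is a deposited log2 ratio with the first-named strain on top, and 1 log2 unit is a 2-fold difference. The deposited table does not state the direction, which was read from the values and from the genes that each strain lacks. GBP2 lay between -4.04 and -2.58 in the 7 extract pairs of Dgbp2 or Dgbp2Dhrb1, and NPL3 between -2.19 and -0.63 in 16 of the 17 extract pairs of Dnpl3 over WT. HRB1 lay between -2.26 and -0.43 in the 7 extract pairs of Dhrb1 or Dgbp2Dhrb1. NAM7, which encodes Upf1, lay between -4.24 and -1.25 where only the first strain lacked it, at 2.70 and 3.63 where only the second did, and at -0.08 where both did. The exception was the extract pair labelled Dnpl3 over WT at 30 °C, replicate 3, where NPL3 was at 1.47, against its label. It is given as labelled below and enters every result over all extract pairs. Values without it are also given for the alpha genes and HMRA1 in Dnpl3 over WT, and for FUS3 and KAR4. The array titles fall into 6 batches by their leading number, called A to F, and that number is not said to be a growth or extraction date. No probe intensities were used, so the number of arrays limits the precision and the signal behind each ratio is unknown.

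The a-specific and alpha-specific RNAs moved in opposite directions in 17 of the 37 extract pairs. An extract pair was counted where the mean of MFA1 and MFA2 and the mean of STE3, MF(ALPHA)1 and MF(ALPHA)2 both passed 1 log2 unit, with opposite signs. In 15 extract pairs the a-specific RNAs were higher and the alpha-specific RNAs lower in the first strain, and in 2 it was the other way round. The 15 comprised all 3 extract pairs of Dgbp2 over WT, all 3 of Dhrb1 over WT, 2 of the 4 of Dgbp2Dhrb1 over WT, both of Dnpl3Dupf1 over WT, both of Dupf1 over WT, and the single extract pairs of Dupf1 over Dnpl3, Dnpl3Dupf1 over Dnpl3 and Dupf1+Dnpl3 over Dnpl3. The 2 in the other direction were Dnpl3 over Dnpl3Dupf1 and Dnpl3 over Dupf1. None of the 17 extract pairs of Dnpl3 over WT was among them, nor was Dnpl3Dupf1 over Dupf1. In RNA of whole cultures, fewer cells of a type and less RNA per cell cannot be told apart. The labels do not say whether the strains of an extract pair were of the same mating type. Neither a difference in mating type nor an effect of the deletion was tested.

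The extract pair nearest to the limit among those counted was Dhrb1 over WT at 37 °C, replicate 1, with a mean of -1.33 for the 3 alpha-specific genes and 1.10 for the a-specific genes. The nearest outside was Dnpl3 over WT after 30 min at 37 °C, replicate 5, with 0.44 for the alpha-specific genes and -0.14 for the a-specific genes. In the 20 extract pairs that were not counted, the a-specific mean lay between -0.35 and 0.25. Of the 34 arrays behind the 17 extract pairs, 32 passed both limits on their own, and so did 0 arrays of the other extract pairs.

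**Figure D1:**
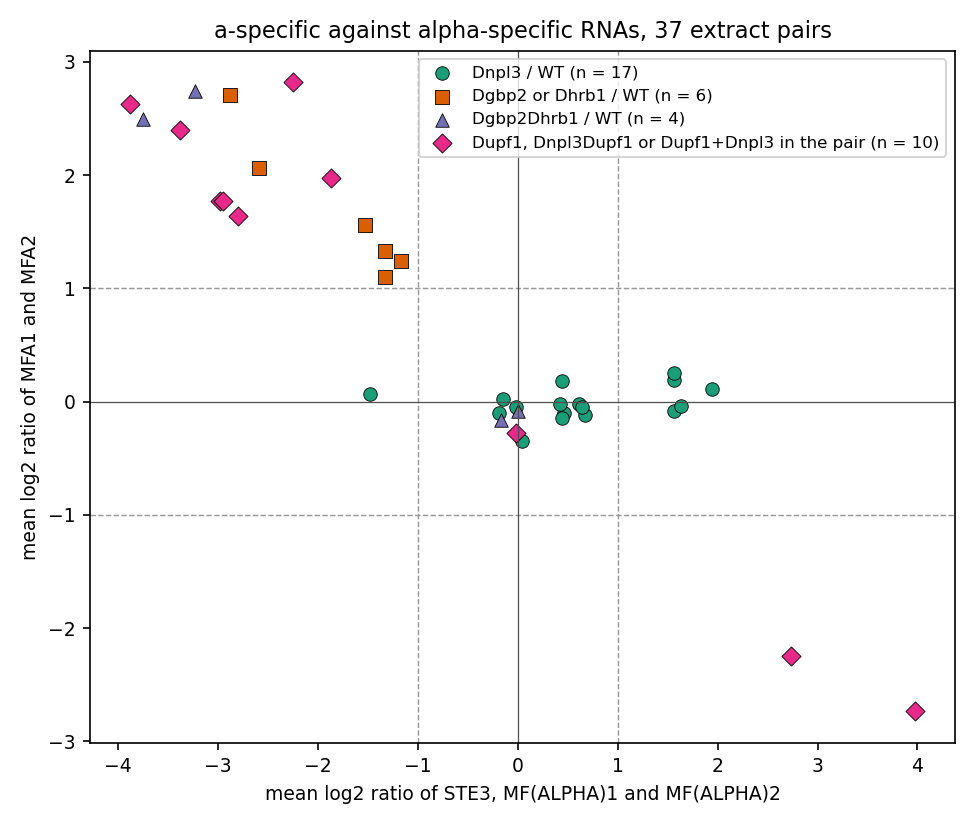
Each point is 1 extract pair, with the mean log2 ratio of STE3, MF(ALPHA)1 and MF(ALPHA)2 on the x axis and that of MFA1 and MFA2 on the y axis, and dashed lines at 1 log2 unit in either direction. The 15 extract pairs at the upper left and the 2 at the lower right stand clear of the other 20, whose a-specific mean stays between -0.35 and 0.25.

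Over all probes of the array, 2.02% (31 of 1536) were past 1 log2 unit in either direction in at least 10 of the 37 extract pairs. MFA2, STE3, MF(ALPHA)1, MF(ALPHA)2 and MATALPHA1 were among these 31, MFA1 and HMRA1 were not. MF(ALPHA)1 was past 1 log2 unit in 23 extract pairs, STE3 in 22, MATALPHA1 in 18, MFA2 in 17, MF(ALPHA)2 in 12 and MFA1 in 8. For HMRA1, probe 1 passed in 1 extract pair, and probes 2 and 3 in 0. The members were chosen with these values in view, so nothing is read from their share.

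**Figure D2:**
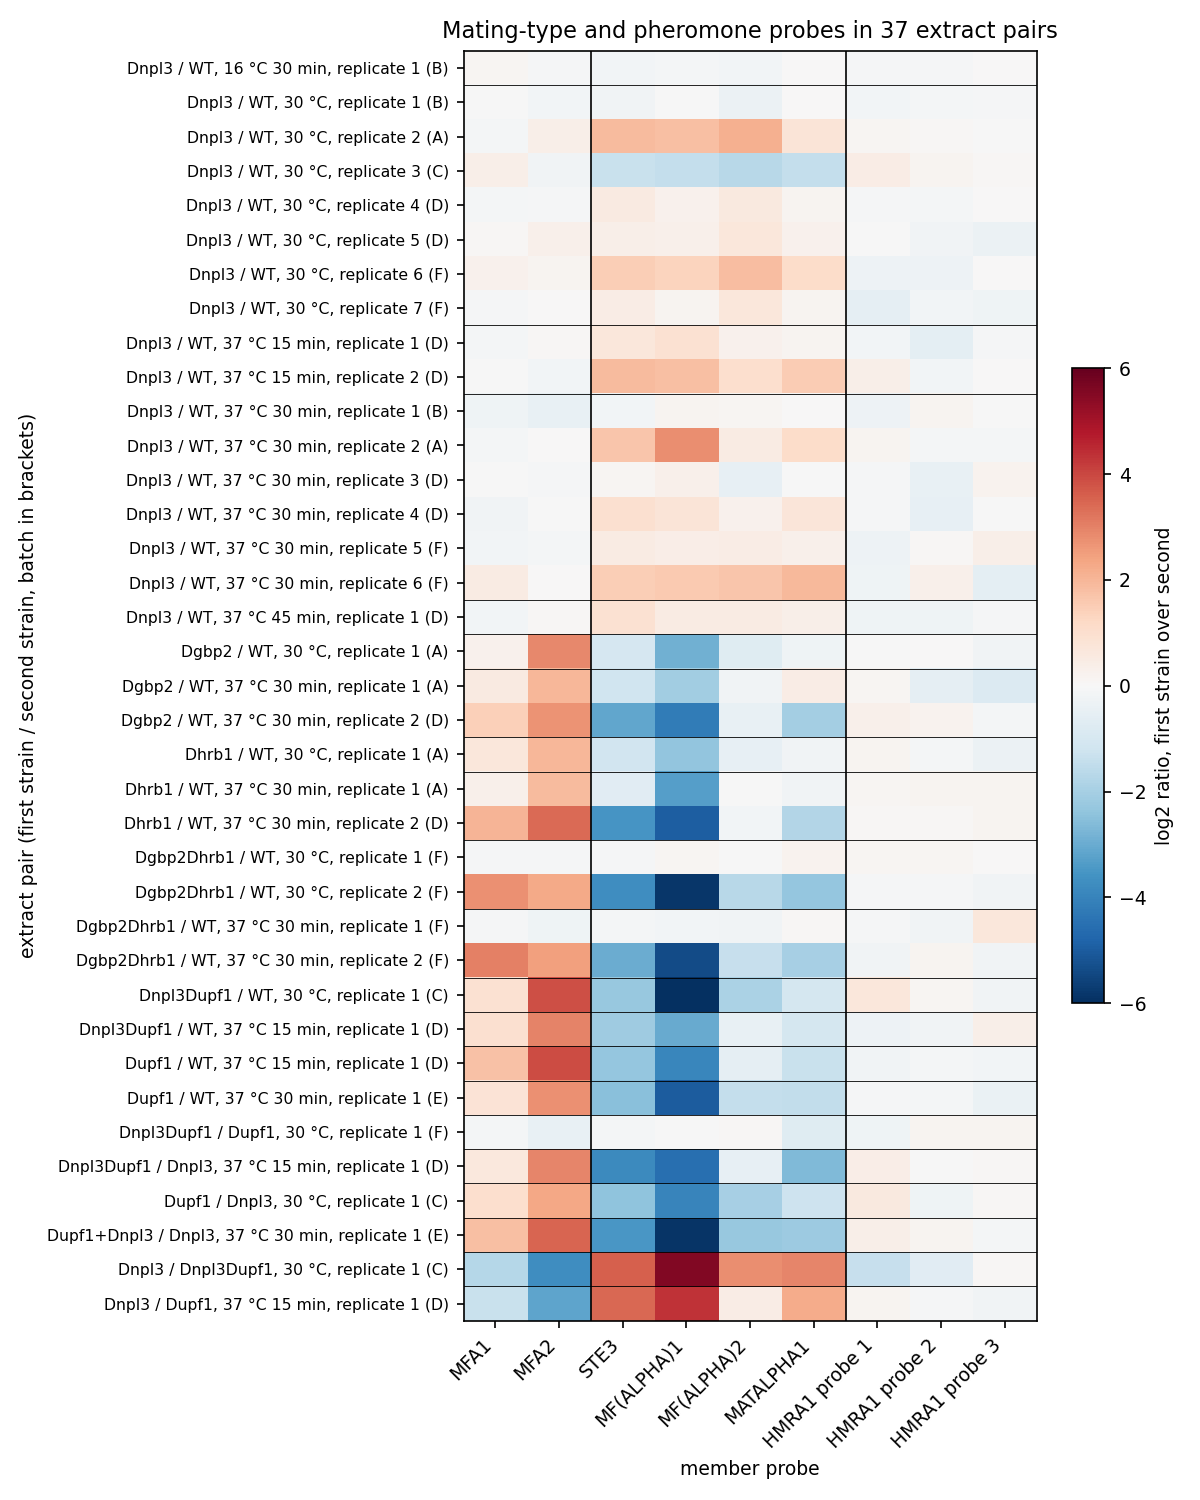
Log2 ratios of the 9 member probes (columns) in the 37 extract pairs (rows, with the first strain over the second and the batch in brackets), red where the first strain was higher and blue where it was lower. The a-specific columns and the 4 alpha columns have opposite signs in the lower rows, with some exceptions. These are replicate 1 of Dgbp2Dhrb1 over WT at 30 °C and at 37 °C, Dnpl3Dupf1 over Dupf1 and, for MATALPHA1 (0.45), replicate 1 of Dgbp2 over WT at 37 °C. Some cells there are near 0 and almost without colour, such as MF(ALPHA)2 in replicate 1 of Dhrb1 over WT at 37 °C (-0.01). In Dnpl3 over WT colour is seen chiefly in the alpha columns.

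MFA2 encodes a precursor of a-factor. On the 2 arrays of each extract pair, given with the first strain in Cy3 and then in Cy5, it stood at 3.65 and 2.09 in Dgbp2 over WT at 30 °C, and at 37 °C at 2.53 and 1.41 in replicate 1 and at 2.95 and 2.48 in replicate 2. In Dhrb1 over WT it stood at 1.78 and 2.18 at 30 °C, and at 37 °C at 2.50 and 1.28 in replicate 1 and at 3.69 and 3.08 in replicate 2. All 12 of these arrays had more MFA2 RNA in the deletion strain, and none came within 1 log2 unit of 0. In the strains lacking Upf1, MFA2 stood at 3.76 and 4.01 in Dnpl3Dupf1 over WT at 30 °C and at 2.53 and 3.43 after 15 min at 37 °C. In Dupf1 over WT it stood at 4.05 and 3.75 after 15 min at 37 °C and at 2.91 and 2.57 after 30 min. The highest extract pair of all was Dupf1 over WT after 15 min, with a mean of 3.90.

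MFA1 encodes the same pheromone from a separate gene and differed less. Its mean over the arrays of an extract pair was 0.24 in Dgbp2 over WT at 30 °C, and 0.52 and 1.41 in replicates 1 and 2 at 37 °C. In Dhrb1 over WT it was 0.67 at 30 °C, and 0.32 and 2.03 in replicates 1 and 2 at 37 °C. Over the 15 extract pairs with a-specific RNAs higher in the first strain, MFA1 ranged from 0.24 to 3.03 (median 0.98) and MFA2 from 1.89 to 3.90 (median 2.74), and the extract-pair means of both were above 0 in all 15. On single arrays MFA1 was below 0 with the first strain in Cy3 in Dgbp2 over WT at 30 °C (-0.23), in replicate 1 of Dgbp2 (-0.39) and of Dhrb1 (-0.36) over WT at 37 °C and, barely, in Dnpl3Dupf1 over Dnpl3. Over all 36 extract pairs with 2 arrays, MFA1 had the same sign on both in 19. Among the 15 extract pairs with a-specific RNAs higher in the first strain, MFA1 exceeded MFA2 in only 2. These were replicate 2 of Dgbp2Dhrb1 over WT at 30 °C (2.73 for MFA1, 2.27 for MFA2) and at 37 °C (3.03 for MFA1, 2.46 for MFA2). These are ratios of each RNA with itself in the other strain, and do not rank the amounts of the 2 RNAs.

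STE3 encodes the receptor through which alpha cells sense a-factor. On arrays with the first strain in Cy3 and then in Cy5, it stood at -1.38 and -0.64 in Dgbp2 over WT at 30 °C, and at 37 °C at -0.94 and -1.50 in replicate 1 and at -2.89 and -3.34 in replicate 2. In Dhrb1 over WT it stood at -0.87 and -1.44 at 30 °C, and at 37 °C at -0.49 and -0.89 in replicate 1 and at -3.97 and -3.11 in replicate 2. Every one of these arrays had less STE3 RNA in the deletion strain, with replicate 2 of each strain at 37 °C well apart from its replicate 1. In Dnpl3Dupf1 over WT, STE3 stood at -2.47 and -2.04 at 30 °C and at -1.38 and -2.88 after 15 min at 37 °C. In Dupf1 over WT it stood at -2.20 and -2.43 after 15 min at 37 °C and at -2.57 and -2.44 after 30 min. Over the 15 extract pairs STE3 ranged from -3.83, in Dnpl3Dupf1 over Dnpl3, to -0.69, in replicate 1 of Dhrb1 over WT at 37 °C (median -2.43).

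MF(ALPHA)1 encodes the main alpha-factor precursor and had the widest range of all members. Its mean was -2.86 in Dgbp2 over WT at 30 °C, and -2.09 and -4.19 in replicates 1 and 2 at 37 °C. In Dhrb1 over WT it was -2.37 at 30 °C, and -3.30 and -4.96 in replicates 1 and 2 at 37 °C. Over the 15 extract pairs it lay between -5.96, in Dnpl3Dupf1 over WT at 30 °C, and -2.09 (median -4.19), so each of them had at least 2 log2 units less of this RNA in the first strain. MF(ALPHA)2, a second gene for the same pheromone, lay between -2.29 and -0.01 in the same extract pairs (median -0.52) and was at or below -1 in 6 of them. In 3 of the 6 extract pairs of the single deletions Dgbp2 and Dhrb1 it stayed between -0.19 and -0.01, namely replicate 1 of Dgbp2 and both replicates of Dhrb1 after 30 min at 37 °C. The MF(ALPHA)1 and MF(ALPHA)2 probes therefore gave very different ratios in the same RNA samples.

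MATALPHA1 encodes the activator of the alpha-specific genes. In Dgbp2 over WT it stood at -0.25 at 30 °C, and at 0.45 and -2.02 in replicates 1 and 2 at 37 °C. In Dhrb1 over WT it stood at -0.22 at 30 °C, and at -0.23 and -1.76 in replicates 1 and 2 at 37 °C. Replicate 2 of both strains belongs to batch D and the other 4 extract pairs to batch A, so for these strains batch A held MATALPHA1 between -0.25 and 0.45 and STE3 between -1.22 and -0.69, and batch D held STE3 at -3.12 and -3.54. The part of the batch in this was not tested. In the other 9 of the 15 extract pairs MATALPHA1 lay at or below -1, with the lowest value of -2.64 in Dnpl3Dupf1 over Dnpl3.

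HMRA1 is the name of the gene at the silent HMR locus, with the same coding sequence as the a1 gene that MATa cells express and that, together with alpha2, shuts off haploid genes in diploid cells. It had 3 probes, and the sources used here do not say what each probe matches in the transcript. Over the 15 extract pairs with a-specific RNAs higher in the first strain, probe 1 ranged from -0.30 to 0.67 (median 0.10), probe 2 from -0.53 to 0.22 (median -0.03) and probe 3 from -0.81 to 0.34 (median -0.18). None of the 3 probes reached 1 log2 unit there, unlike MFA2. The one value past 1 was that of probe 1 in Dnpl3 over Dnpl3Dupf1 at 30 °C, at -1.59 and -1.15 on its 2 arrays, in which MFA1 (-1.73) and MFA2 (-3.74) were also lower in Dnpl3. The next extract pairs by size for probe 1 also came from batch C, with 0.67 in Dnpl3Dupf1 over WT and 0.61 in Dupf1 over Dnpl3.

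The other cassette genes on the array, MATALPHA2 and HMRA2, share sequence with each other and with silent copies, so their probes cannot be told apart by gene. MATALPHA2 lay between -1.38 and 0.99 and HMRA2 between -0.92 and 0.79 in the 15 extract pairs. Their lowest values were in replicate 2 of Dgbp2 over WT at 37 °C, and their highest in Dnpl3Dupf1 over WT at 30 °C. Both genes were tested with limma across all probes and neither passed in any of the 7 comparisons that had at least 2 extract pairs.

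The 2 replicates of Dgbp2Dhrb1 over WT differed from each other at both temperatures. At 30 °C, MFA1 stood at -0.08 in replicate 1 and 2.73 in replicate 2, MFA2 at -0.08 and 2.27, STE3 at -0.08 and -3.73, and MF(ALPHA)1 at 0.11 and -5.83. At 37 °C, MFA1 stood at -0.08 in replicate 1 and 3.03 in replicate 2, MFA2 at -0.25 and 2.46, STE3 at -0.11 and -2.97, and MF(ALPHA)1 at -0.17 and -5.36. Replicate 1 lay near 0 for every one of these genes at both temperatures, and replicate 2 lay far from 0 for all of them. MATALPHA1 followed the same split, at 0.23 in replicate 1 and -2.33 in replicate 2 at 30 °C, and at 0.09 and -1.98 at 37 °C, and so did MF(ALPHA)2, at -0.04 in replicate 1 and -1.68 in replicate 2 at 30 °C.

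All 4 extract pairs of the double deletion belong to batch F and carry the same strain labels. Both deleted genes read low in each of them, with GBP2 at -3.06 and -4.04 and HRB1 at -1.18 and -2.16 in replicates 1 and 2 at 30 °C, and with GBP2 at -2.58 and -3.82 and HRB1 at -1.59 and -2.26 at 37 °C. The group means of the members lie between 2 unlike extract pairs and describe neither. For STE3 the mean was -1.91 (SD 2.58, n = 2) at 30 °C and -1.54 (SD 2.02, n = 2) at 37 °C, and for MFA2 it was 1.10 (SD 1.66, n = 2) and 1.11 (SD 1.92, n = 2).

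Among the strains lacking Upf1, the direction of the members followed which strain was named first. Dnpl3 over Dnpl3Dupf1 at 30 °C had STE3 at 3.57, MF(ALPHA)1 at 5.57, MF(ALPHA)2 at 2.80 and MATALPHA1 at 2.92. Dnpl3 over Dupf1 after 15 min at 37 °C had STE3 at 3.43, MF(ALPHA)1 at 4.34, MATALPHA1 at 2.22 and MFA2 at -3.16. Dnpl3 thus had the higher alpha-specific and the lower a-specific levels against either strain that lacked Upf1. With Dnpl3 as the second strain the signs were opposite, as in Dnpl3Dupf1 over Dnpl3 after 15 min at 37 °C (STE3 -3.83, MF(ALPHA)1 -4.53, MFA2 2.92) and in Dupf1+Dnpl3 over Dnpl3 after 30 min (STE3 -3.48, MF(ALPHA)1 -5.88, MFA2 3.47). Dnpl3Dupf1 over Dupf1 at 30 °C, where both strains lacked Upf1, had MFA1 at -0.13, MFA2 at -0.42, STE3 at -0.12, MF(ALPHA)1 at -0.01, MF(ALPHA)2 at 0.07 and MATALPHA1 at -0.71. Of these 6 values, 5 lay within 0.5 log2 units of 0, and MATALPHA1 was the exception.

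The 2 arrays of Dupf1 over Dnpl3 at 30 °C agreed poorly in size. With Dupf1 in Cy3, STE3 stood at -3.78, MF(ALPHA)1 at -6.55, MATALPHA1 at -2.93 and MFA2 at 3.90, and with Dupf1 in Cy5 they stood at -1.07, -1.40, 0.42 and 0.70. MATALPHA1 even changed sign between the arrays. This array, with Dupf1 in Cy5, was 1 of the 2 arrays that did not pass both limits on their own. The other was replicate 1 of Dgbp2 over WT at 37 °C with Dgbp2 in Cy5, where MFA2 was at 1.41, STE3 at -1.50, MF(ALPHA)1 at -1.97 and MF(ALPHA)2 at 0.93.

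Sums of ratios around strains measured against each other returned part of the members' values. At 30 °C, Dnpl3 over Dnpl3Dupf1 plus Dnpl3Dupf1 over WT, both of batch C, gives a value for Dnpl3 over WT of 1.31 for STE3, 0.88 for MF(ALPHA)2, 1.85 for MATALPHA1, -0.39 for MF(ALPHA)1 and 0.14 for MFA2, and a negative value for NPL3. The extract pair of batch C labelled Dnpl3 over WT at 30 °C, replicate 3, measured -1.35 for STE3, -1.64 for MF(ALPHA)2, -1.45 for MATALPHA1, -1.43 for MF(ALPHA)1, -0.20 for MFA2 and 1.47 for NPL3. The 2 routes gave opposite signs for 5 of these 6 probes and the same sign for MF(ALPHA)1. After 15 min at 37 °C, where all extract pairs belong to batch D, the route through Dnpl3Dupf1 gave 1.71 for STE3, 1.49 for MF(ALPHA)1 and 1.61 for MATALPHA1, beside 1.88, 1.79 and 1.51 measured in replicate 2 of Dnpl3 over WT. The route through Dupf1 gave 1.11 for STE3, 0.42 for MF(ALPHA)1 and 0.90 for MATALPHA1. For MF(ALPHA)2 both routes gave values near 0 (0.050 through Dnpl3Dupf1 and -0.073 through Dupf1), beside 1.01 measured. The closed loop of Dupf1, Dnpl3 and Dnpl3Dupf1 at 30 °C summed to 1.02 for STE3, 1.60 for MF(ALPHA)1 and -1.87 for MFA2. Its Dnpl3Dupf1 over Dupf1 extract pair is of batch F and the other 2 are of batch C, so error and differences between RNA samples cannot be told apart in these sums.

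In Dnpl3 over WT the extract-pair means of the a-specific RNAs stayed near 0, while those of the alpha genes varied widely. MFA1 ranged from -0.27 to 0.49 over the 17 extract pairs (median -0.05) and MFA2 from -0.42 to 0.37 (median -0.04). Single arrays of MFA1 lay further from 0, as after 45 min at 37 °C, with -0.94 for Dnpl3 in Cy3 and 0.60 for Dnpl3 in Cy5. STE3 ranged from -1.35 to 1.90 (median 0.56), MF(ALPHA)1 from -1.43 to 2.77 (median 0.40), MF(ALPHA)2 from -1.64 to 2.14 (median 0.48) and MATALPHA1 from -1.45 to 1.93 (median 0.26). The lowest value of all 4 was that of the pair labelled replicate 3 at 30 °C. In the other 16, STE3 ranged from -0.21 to 1.90 and was above 0 in 13, and MATALPHA1 was above 0 in 15, with a highest value of 1.93. In the same 16, MF(ALPHA)1 ranged from -0.12 to 2.77 (median 0.44) and MF(ALPHA)2 from -0.48 to 2.14 (median 0.50). The 3 HMRA1 probes ranged from -0.60 to 0.46 over the 17, and from -0.60 to 0.34 over the 16.

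By temperature, Dnpl3 over WT had STE3 at -0.17 after 30 min at 16 °C. At 30 °C STE3 was lowest at -1.35, with a median of 0.44 and a highest value of 1.90, and the mean was 0.46 (SD 1.07, n = 7). Without the pair labelled replicate 3 the mean was 0.76 (SD 0.79, n = 6), with a lowest value of -0.21 and a median of 0.50. It stood at 0.68 and 1.88 after 15 min at 37 °C, and at 0.92 after 45 min. After 30 min at 37 °C it was lowest at -0.17, with a median of 0.74, a highest value of 1.64 and a mean of 0.76 (SD 0.74, n = 6). The ranges at 30 °C, after 15 min and after 30 min at 37 °C overlapped, and the single values at 16 °C and after 45 min lay within the range at 30 °C.

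Extract pairs in which STE3 was high were mostly high for the other alpha genes as well, and they came in several batches. Replicate 2 at 30 °C had STE3 at 1.90, MF(ALPHA)1 at 1.80, MF(ALPHA)2 at 2.14 and MATALPHA1 at 0.79. Replicate 2 after 30 min at 37 °C had STE3 at 1.64, MF(ALPHA)1 at 2.77, MF(ALPHA)2 at 0.48 and MATALPHA1 at 1.12. Both are of batch A. Replicate 6 at 30 °C (1.49, 1.35, 1.85 and 1.11 for the same genes in that order) and replicate 6 after 30 min at 37 °C (1.48, 1.56, 1.64 and 1.93) are of batch F, and replicate 2 after 15 min at 37 °C (1.88, 1.79, 1.01 and 1.51) is of batch D. The values of replicate 6 after 30 min at 37 °C are from 1 array, with Dnpl3 in Cy5, and no dye-flipped array balances them. In batch B, with 3 extract pairs at 16, 30 and 37 °C, STE3 stayed between -0.21 and -0.17, MF(ALPHA)1 between -0.12 and 0.17, and MATALPHA1 between 0.03 and 0.04. In batch D, with 7 extract pairs, STE3 lay between 0.10 and 1.88, and in batch F, with 4, between 0.44 and 1.49. The level of these alpha genes in Dnpl3 over WT thus differed both between batches and within batches D and F, and the part of the batch in it was not tested.

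**Figure D3:**
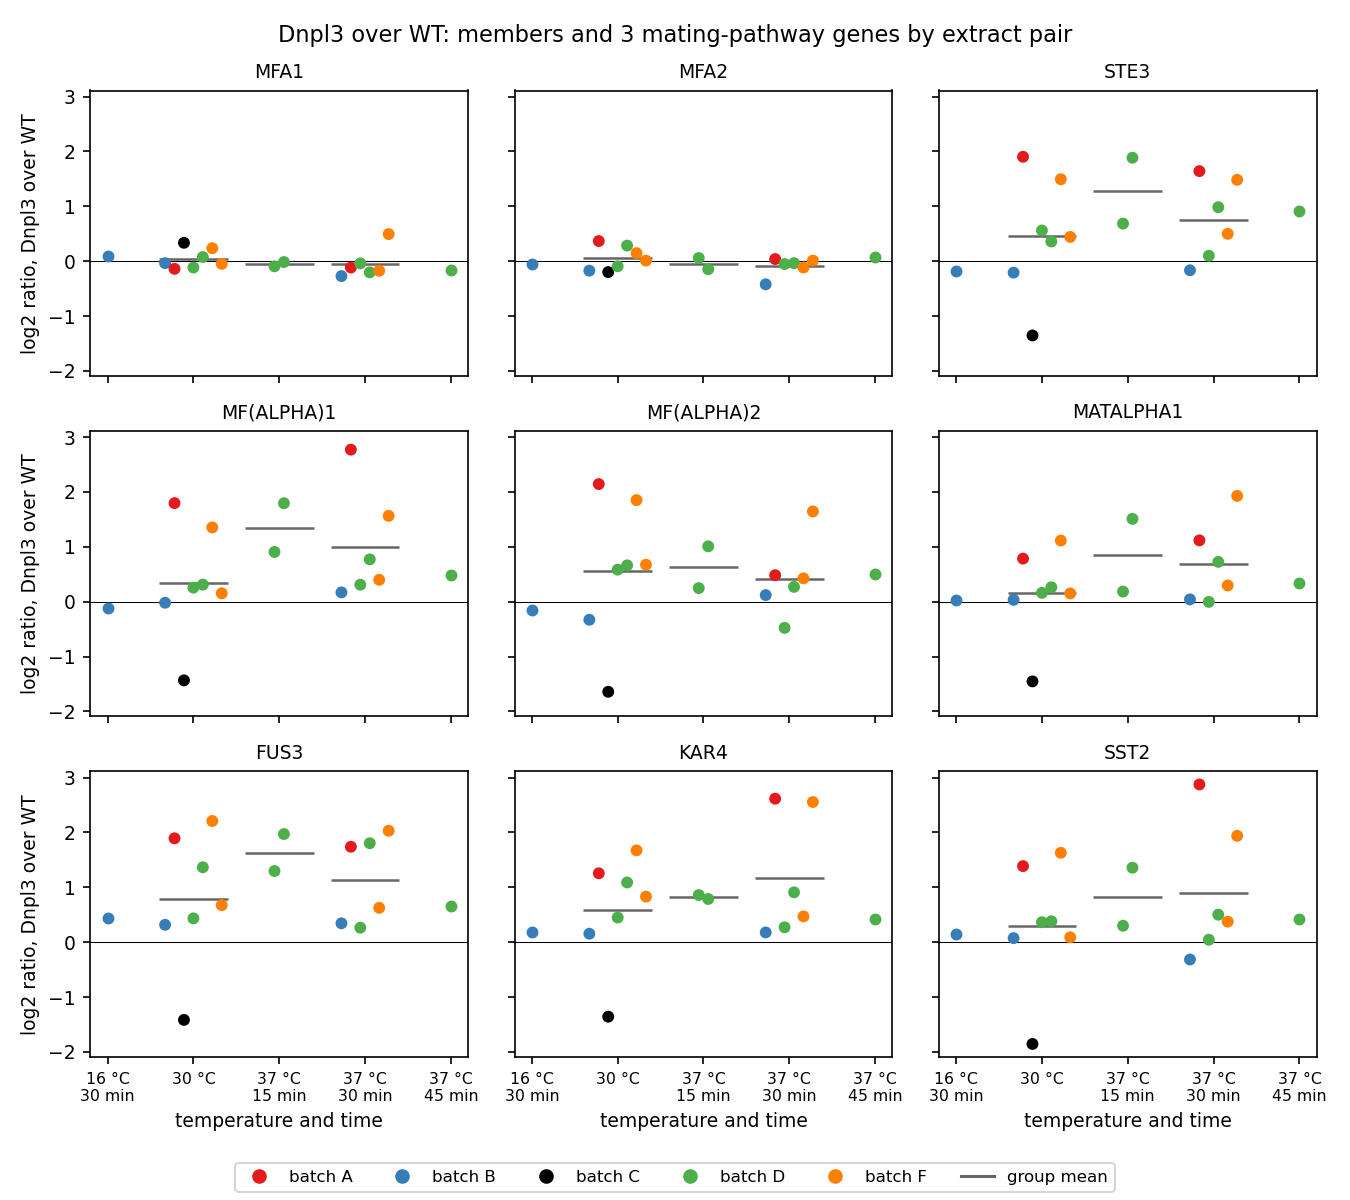
Log2 ratios of 6 members and of FUS3, KAR4 and SST2 in the 17 extract pairs of Dnpl3 over WT, by temperature and time on the x axis, coloured by batch, with the group mean as a line over all extract pairs of the group. MFA1 and MFA2 stay between -0.42 and 0.49, whereas STE3 spans -1.35 to 1.90, with the pair labelled replicate 3 (black) lowest.

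The other genes of the mating pathway were taken from lists of 76 genes, of which 20 had a probe. These were 2 cassette genes, 4 haploid-specific genes, 4 genes of the pheromone response and its kinase cascade, and 10 regulators and silencing factors, while 0 of the listed further a-specific, alpha-specific, pheromone-processing or strain-marker genes had one. They were tested with limma across all 1536 probes, with Benjamini-Hochberg adjustment and a threshold of 0.05. In Dnpl3 over WT after 30 min at 37 °C, 7 of the 20 passed, 2 higher and 5 lower, against 22.4% (344 of 1536) of all probes. The median log2 ratio was 0.12 over the 20 genes and -0.02 over all probes.

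The 2 that rose were FUS3, the mitogen-activated kinase of the mating pathway, and KAR4, a transcription factor induced by pheromone. FUS3 had a lowest value of 0.26, a median of 1.18 and a highest value of 2.03 in the 6 extract pairs, with a mean of 1.13 (SE 0.32, limma adjusted p = 0.0156). KAR4 had 0.18, 0.69 and 2.61, with a mean of 1.17 (SE 0.33, limma adjusted p = 0.0149). Both were above 0 in 6 of 6 extract pairs. FUS3 did not pass in 3 of 17 alternative settings, namely without replicate 2 (limma adjusted p = 0.0646), 4 (0.0546) or 6 (0.0597). KAR4 did not pass in 4 of the 17 (limma adjusted p up to 0.0833), among them without replicate 2 (0.0833) or 6 (0.0662). Replicates 2 and 6 were also the ones with STE3 above 1. SST2, which encodes a desensitising regulator of the pheromone response, averaged 0.90 (limma adjusted p = 0.0968) and KSS1, the second kinase of the pathway, 0.49 (limma adjusted p = 0.0574).

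The 5 that fell in Dnpl3 after 30 min at 37 °C were general regulators and 1 kinase. RAP1, a factor that binds silencers and many promoters, averaged -0.57 (limma adjusted p = 0.00266) and was below 0 in 6 of 6 extract pairs. TUP1, a corepressor used by alpha2, averaged -0.49 (limma adjusted p = 0.00603), also below 0 in 6 of 6. SUM1, a repressor of middle-sporulation genes and of silent cassettes, averaged -0.43 (limma adjusted p = 0.0109). MCM1, the partner of both alpha1 and alpha2, averaged -0.35 (limma adjusted p = 0.0362), and STE7, the kinase above Fus3, averaged -0.32 (limma adjusted p = 0.0375). The last 3 were below 0 in 5 of 6. RAP1 passed under all 17 alternative settings. TUP1 did not pass in 2 of the 17 (adjusted p up to 0.13), SUM1 in 3 (up to 0.0871), MCM1 in 7 (up to 0.319) and STE7 in 7 (up to 0.593), each time with the highest adjusted p on arrays with Dnpl3 in Cy5 alone. Among the fits with an extract pair left out, SUM1 failed without replicate 2 (adjusted p = 0.0595), MCM1 without replicate 2, 3, 5 or 6 (0.176, 0.0873, 0.0505 and 0.0663) and STE7 without replicate 3, 4 or 6 (0.0779, 0.0737 and 0.173).

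At 30 °C, where 0.326% (5 of 1536) of all probes passed, 0 of the 20 list genes did in the limma fit, and 1 had an unadjusted p under 0.05. FUS3 averaged 0.78 (SE 0.30, limma adjusted p = 0.214) and KAR4 0.58 (SE 0.30, limma adjusted p = 0.398), each above 0 in 6 of 7 extract pairs. The exception for both was the pair labelled replicate 3, with FUS3 at -1.42 and KAR4 at -1.36. Without it FUS3 averaged 1.15 (limma adjusted p = 0.00233) and KAR4 0.91 (limma adjusted p = 0.0285), each above 0 in 6 of 6. After 15 min at 37 °C, where again 0.326% of all probes passed, 0 of the 20 did and 4 had an unadjusted p under 0.05. FUS3 was above 1 in both extract pairs there, with a higher value of 1.97 (mean 1.63, limma adjusted p = 0.17), and leaving the pair labelled replicate 3 out of the shared fit gave an adjusted p of 0.0317 for it.

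In Dgbp2, Dhrb1 and Dgbp2Dhrb1 over WT, 0 of the 20 list genes passed in the limma fit in any of the 4 comparisons with 2 extract pairs, against 0.13% (2 of 1536) of all probes in each. The counts at an unadjusted p under 0.05 were 2 for Dgbp2 after 30 min at 37 °C and 0 for the other 3. FUS3 stood at 0.35 and -0.46 in replicates 1 and 2 of Dgbp2 after 30 min at 37 °C, and at 0.20 and 0.12 in those of Dhrb1. KAR4 stood at 0.73 and -0.39 in Dgbp2 and at -0.13 and -0.25 in Dhrb1. The haploid-specific and response genes thus stayed within 1 log2 unit in these extract pairs except for SST2 (1.87) and STE12 (1.12), a transcription factor of the pathway, in replicate 1 of Dgbp2 at 37 °C. In the same extract pairs MFA2 was between 1.89 and 3.39 and MF(ALPHA)1 between -4.96 and -2.09. SST2 was also at 1.16 in Dgbp2 over WT at 30 °C.

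Both dye orientations were set side by side to show how far a single array can be read. The mean difference of the array with the first strain in Cy5 minus that with it in Cy3 was 0.15 for STE3, 0.21 for MF(ALPHA)1, 0.10 for MATALPHA1, -0.28 for MFA2, 0.58 for MFA1 and 0.81 for MF(ALPHA)2 over 36 extract pairs. Over these 36, both arrays had the same sign in 19 for MFA1, 26 for MFA2, 33 for STE3, 31 for MF(ALPHA)1, 22 for MF(ALPHA)2 and 28 for MATALPHA1. Where the mean of both arrays was past 1 log2 unit, the same sign was seen in 8 of 8 extract pairs for MFA1, 17 of 17 for MFA2 and 21 of 21 for STE3. It was seen in 22 of 22 for MF(ALPHA)1, 11 of 11 for MF(ALPHA)2 and 16 of 17 for MATALPHA1. Choosing extract pairs by a mean this far from 0 favours a shared sign, so the latter counts do not measure how well the dyes agree. HMRA1 probe 2 differed by 0.81 between the dyes, above 0 in 34 of 36 extract pairs, and had the same sign on both arrays in only 5. Its sign thus changed with the dye in most extract pairs. HMRA1 probe 1 had no value on 1 array, that of replicate 1 of Dhrb1 over WT at 37 °C with Dhrb1 in Cy3, and the value of that extract pair is from the other array.

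**Figure D4:**
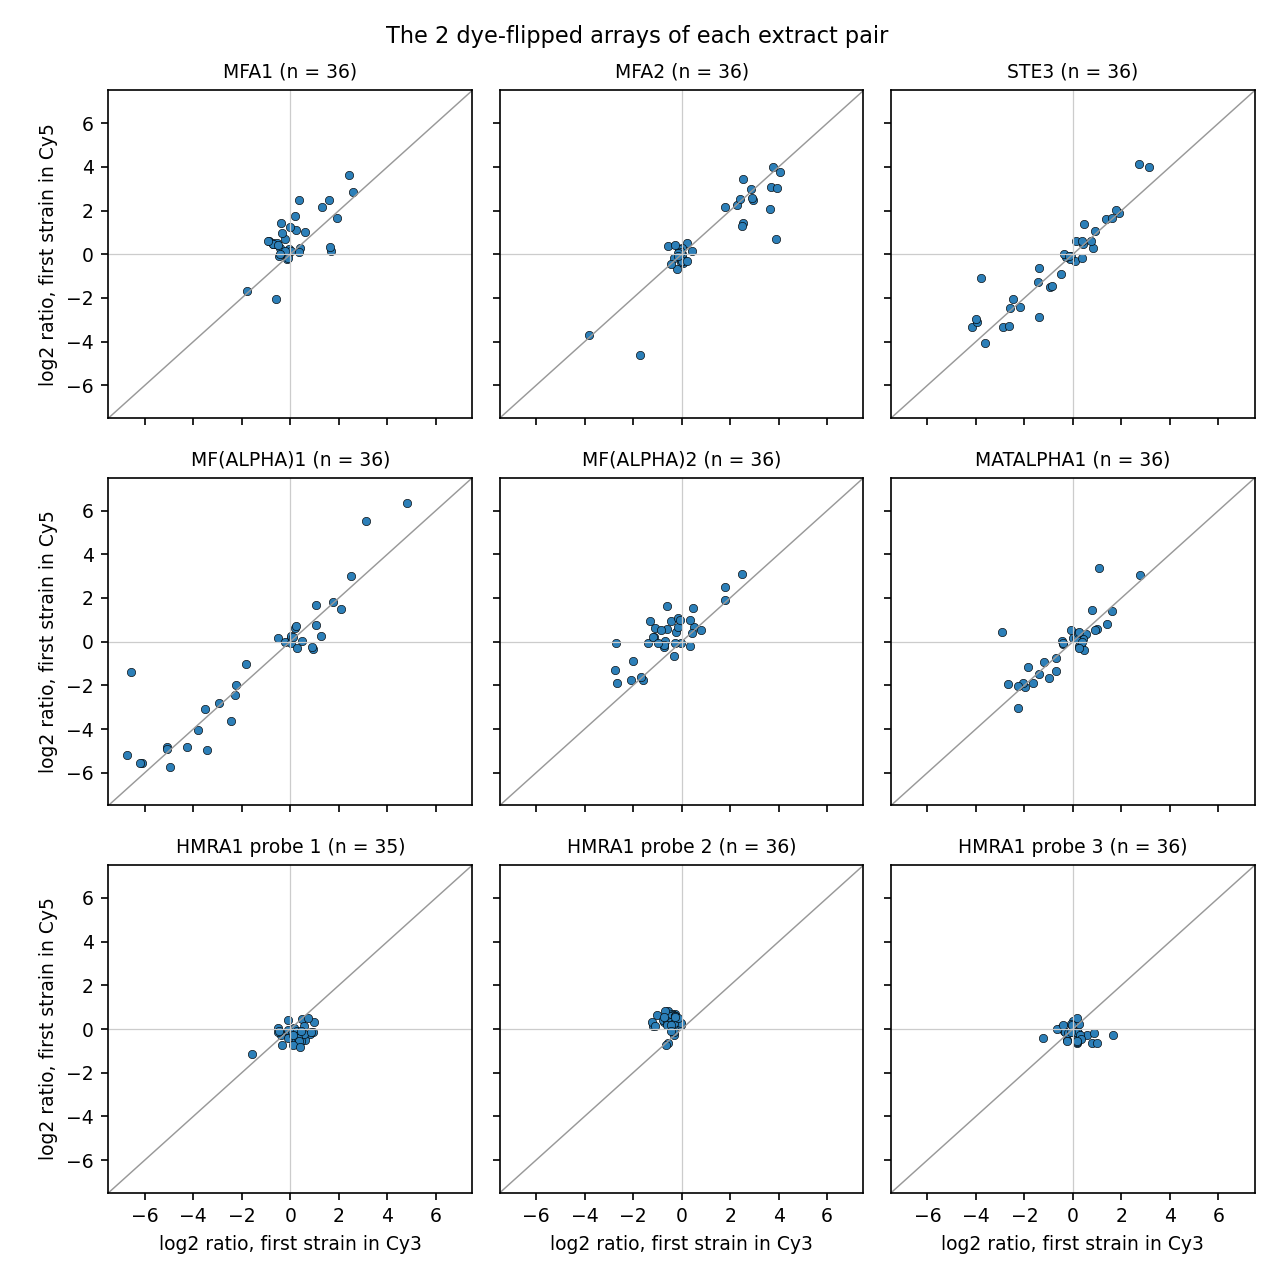
Log2 ratio of each member probe on the array with the first strain in Cy5 (y axis) against that with it in Cy3 (x axis), 1 point for each extract pair with both arrays, and the diagonal where both are equal. The mean height above the diagonal is 0.15 for STE3, 0.21 for MF(ALPHA)1 (SD 1.18, with 1 extract pair 5.15 above) and 0.81 for MF(ALPHA)2 (SD 0.75), and the HMRA1 probes form clouds around 0.

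The probes most like STE3 over the 37 extract pairs, by the root mean square difference of log2 ratios, were MATALPHA1 (0.845), MF(ALPHA)2 (1.28), MF(ALPHA)1 (1.32), NAM7 (1.40) and a probe without a gene name (1.65). The median over 1535 probes was 2.02. With the sign turned, the nearest were MFA2 (1.02), MFA1 (1.24), 2 probes of RPL22B (1.47 and 1.49) and RPL28 (1.63). For MFA2 the nearest probes were MFA1 (1.24), RPL22B (1.28 and 1.53), RPL28 (1.31) and NMD4 (1.44). With the sign turned they were STE3 (1.02), MATALPHA1 (1.29), NAM7 (1.33), MF(ALPHA)1 (1.46) and MF(ALPHA)2 (1.56). RPL22B and RPL28 encode ribosomal proteins, and NMD4 a factor linked to nonsense-mediated decay. The extract pairs are not independent points, since 10 of the 37 hold a strain lacking Upf1. In 9 of these only 1 of the strains lacked it, and all 9 differed by more than 1 log2 unit in NAM7 and had the members in opposite directions, so the loss of Upf1 and the direction of the members cannot be told apart there.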

How the data were processed

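The deposited values are log2 ratios per spot, made by the authors; log2 was taken from the values, since the deposited table states no scale. Per the labels' protocols, RNA was extracted with acid phenol and cDNA carried aminoallyl dUTP. The sources used here give neither background correction nor normalization. The median of an array was between -0.03 and 0.033, so arrays were left as deposited. Spots without a value made up 0.18% to 35.4% of an array.

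The 6 spots of a probe were averaged, and then both dye orientations of each extract pair (36 with 2 arrays, 1 with 1). The ratio was read in the same direction in both dye orientations. Gene names came from the platform's gene table, checked against RefSeq symbols. Replicate numbers follow sample order and pair nothing. No label says that the extract pairs of a group are separate cultures. The p-values then cover only the spread among these pairs, which may be technical.

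All 37 extract pairs were fitted with limma 3.58.1 (R 4.3.3, lmFit and eBayes), with 1 mean for each of the 21 groups. One coefficient per strain, which assumes that each strain is alike in all its extract pairs, was an alternative. Probes with a value in at least 50% of extract pairs entered, p-values were adjusted by Benjamini-Hochberg over 1536 probes, and the threshold was 0.05. The fit was tested on simulated data. The SE comes from the fit, and the SD is that between extract pairs. Alternatives were the spot median, arrays centred on their medians, at least 3 spots, either dye orientation alone, strain coefficients, batch as a random block, no filter, each comparison alone, the pair labelled replicate 3 turned, and each extract pair left out.

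All members were named, and other listed genes with values if they passed in any comparison with 2 or more extract pairs. Values of KSS1, SST2 and STE12, which passed in none, were added after they were seen, as were cassette, regulator and label-check values. Members, lists and tests were chosen with earlier results of these data known. The 2 arrays of prp mutants stayed out of the fit. Tables and figures were made with Python 3.11.15 and matplotlib 3.10.9.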

Additional observations from a re-analysis of the deposited data

Results flagged for a closer look

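Of 40 sets of values examined for an extract pair far from the others of its group, 7 held one, where chance alone gives about 1 in 20. The sets are genes measured in the same extract pairs and are not independent, so no excess over chance is read from this count. In Dnpl3 over WT at 30 °C, the far value belonged each time to the pair labelled replicate 3, with MATALPHA1 lowest at -1.45, NPL3 highest at 1.47 and RAP1 highest at 0.52. In Dnpl3 over WT after 30 min at 37 °C, MFA1 had a high value of 0.49 in replicate 6, MFA2 a low value of -0.42 in replicate 1, TUP1 a low value of -1.19 in replicate 2 and NAM7 a high value of 0.96 in replicate 4. Replicate 6 had only 1 array, with Dnpl3 in Cy5. MFA1 averaged 0.58 higher with the first strain in Cy5 over the 36 extract pairs with 2 arrays, so the part of the dye in its 0.49 is unknown. Neither of the 2 a-specific values reached 1 log2 unit. SUM1, a repressor of silent cassettes, lay on one side of 0 in both extract pairs of Dgbp2Dhrb1 over WT at 30 °C and on the other side in both at 37 °C, with a difference of 0.22 between the group means, which was not tested.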

How the results depend on the processing

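The count of 17 extract pairs with a-specific and alpha-specific members in opposite directions was again 17 with the spot median, centred arrays, at least 3 spots, Cy3 arrays alone or a limit of 0.5. It was 15 in Cy5 arrays alone, 16 for STE3 against MFA2 and 15 where both arrays had to pass. With an extract pair left out it was 16 to 17. No other outcome was possible there, since each extract pair is counted on its own values. Of 945 member values under 5 settings, 842 moved by less than the spread, 102 moved by more and 1 turned sign, namely MATALPHA1 in Dupf1 over Dnpl3 with Dupf1 in Cy5 alone (0.42). Leaving out either replicate of Dgbp2Dhrb1 over WT gave -0.082 to 2.73 for MFA1, -0.077 to 2.27 for MFA2, -5.83 to 0.11 for MF(ALPHA)1 and -2.33 to 0.23 for MATALPHA1 at 30 °C, and -0.083 to 3.03 for MFA1 and -0.25 to 2.46 for MFA2 at 37 °C, and the sign turned without replicate 2.

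Calls over all probes depended on the setting. For Dgbp2 over WT at 37 °C (2 probes) they became 4 with at least 3 spots, 5 in Cy5 and 74 in Cy3 alone and 1 with batch as a block, and 2 to 158 with an extract pair left out. For Dhrb1 at 37 °C (2) they became 1 with the spot median, 5 with at least 3 spots, 1 in Cy5 and 5 in Cy3 alone and 4 with strain coefficients (2 to 7 with an extract pair left out). For Dgbp2Dhrb1 (2 at each temperature) they became 1 in Cy5 alone at 30 °C (2 to 7 left out), and at 37 °C 7 in Cy5, 10 in Cy3, 6 with strain coefficients and 4 with the pair labelled replicate 3 turned (5 to 7 left out). For Dnpl3 at 30 °C (5) they became 3 with medians set to 0, 22 in Cy5, 43 in Cy3, 66 with strain coefficients, 1 with batch as a block, 240 with replicate 3 turned and 1 in the comparison alone (1 to 193 left out). For Dnpl3 after 15 min (5) they became 10, 2 and 2 with the spot median, medians set to 0 and at least 3 spots, 0 in Cy5, 57 in Cy3, 64 with strain coefficients, 0 with batch as a block, 69 with replicate 3 turned and 60 with it left out of the shared fit, chosen after seeing the data (0 to 36 left out). For Dnpl3 after 30 min at 37 °C (344) they became 156 in the comparison alone (195 to 342 left out).

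The list genes called became 3 at 30 °C with replicate 3 turned (0 to 2 left out, the 2 without replicate 3), and 1 after 15 min with strain coefficients, with replicate 3 turned or with it left out of the shared fit (0 to 0 left out). After 30 min at 37 °C (7) they became 3 in Cy5 alone and 2 in the comparison alone (3 to 8 left out). For Dgbp2 they were 0 to 3, and 0 for Dhrb1 and Dgbp2Dhrb1. The 3 (HST1, SIR1 and SIR3, each below 0 in replicate 2) came without replicate 2, beside 158 of all probes, in a fit where the lone extract pair is assumed to vary like the other groups, as in every such fit of a group of 2. The causes were not tested. No paired analysis was possible because replicate numbers were given in sample order and tie no extract pairs together; batches span groups and were fitted as a random block instead.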

Other observations

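Outside the 21 groups, 2 single arrays set the splicing mutant prp2-1 against prp5-1 and against prp8-1 after 30 min at 37 °C, with no replicate. The direction of these ratios was taken from the order of strains in the titles. It could not be checked by a deleted gene or a dye-flipped array, so the signs below hold only if that order applies. In prp2-1 over prp5-1, MFA1 was at 1.41 and MFA2 at 2.18, while STE3 was at -1.05, MF(ALPHA)1 at -2.16, MF(ALPHA)2 at -0.37 and MATALPHA1 at -2.02. The HMRA1 probes were at 4.39 for probe 1, 2.16 for probe 2 and 0.29 for probe 3, whereas in the 37 extract pairs these probes passed 1 log2 unit once. In prp2-1 over prp8-1, MFA2 was at -2.49 and MFA1 at -0.60, while STE3 was at 0.45, MF(ALPHA)1 at 0.64, MF(ALPHA)2 at 0.44 and MATALPHA1 at 0.46, and the HMRA1 probes were at -0.11, 0.38 and 0.75. HMRA1 is a gene with introns, and which part of it each probe matches was not given.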
